A study of Mus musculus with 2 samples.

Results

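The genes described here build and power the motile cilium, the beating, whip-like projection of specialised epithelial cells and of sperm. They comprise 34 genes, chosen by name as axonemal dyneins, radial spoke and central pair proteins, tektins and regulators of multiciliation, out of 43346 mouse genes quantified. All 34 were found in the files by symbol. The tissue, labelled adipose, was taken from an adult male of the C57BL/6J strain at an age of 10 weeks, and its polyadenylated RNA was sequenced. There was 1 biosample, read as 2 technical libraries, and the labels name no treatment, mutation or second group. Library 2 was made at a later date than library 1 and lies outside the study's original publication. Library and date therefore cannot be told apart, no conditions were compared, and every spread below is the technical spread between n = 2 libraries. The expected counts summed to 19954869 in library 1 and 19256807 in library 2.

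A motile cilium is built on a ring of microtubule doublets around a central pair of microtubules. Outer and inner dynein arms on the doublets pull on the neighbouring doublet, radial spokes and nexin links turn that sliding into bending, and tektins line the doublet wall. Multiciliated cells line the airways, the brain ventricles, the oviduct and the efferent ducts that lead from the testis to the epididymis, and the sperm tail has the same core. Fat cells carry at most a primary cilium, which lacks dynein arms, spokes and the central pair.

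Motile cilium transcripts were present at low levels in both libraries. The members held 5277 expected counts, or 0.0264% of all counts, in library 1, and 7169, or 0.0372%, in library 2. No member was at 0 counts, and 33 of 34 stood above 3 counts in both libraries. Levels are given as TPM, which correct for gene length and for the library total. Of the members, 17 (50%) reached 1 TPM in both libraries, beside 57.1% of 21474 protein-coding genes. Taken singly, library 1 had 19 members at that level, beside 58% of protein-coding genes, and library 2 had 26, beside 67.2%. A further 2 members, Gmnc and Dnah5, reached it in library 1 only, 9 in library 2 only, and 6 in neither. The members had a median of 1.14 TPM in the earlier library and 2.32 TPM in the later one, beside 2.09 and 6.01 TPM over protein-coding genes. The median member lay at percentile 43.2 of protein-coding genes in library 1 and 39.6 in library 2. Adipose tissue is a mixture of cells, and in such a bulk sample fewer cells of a type and less RNA per cell cannot be told apart.

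**Figure D1:**
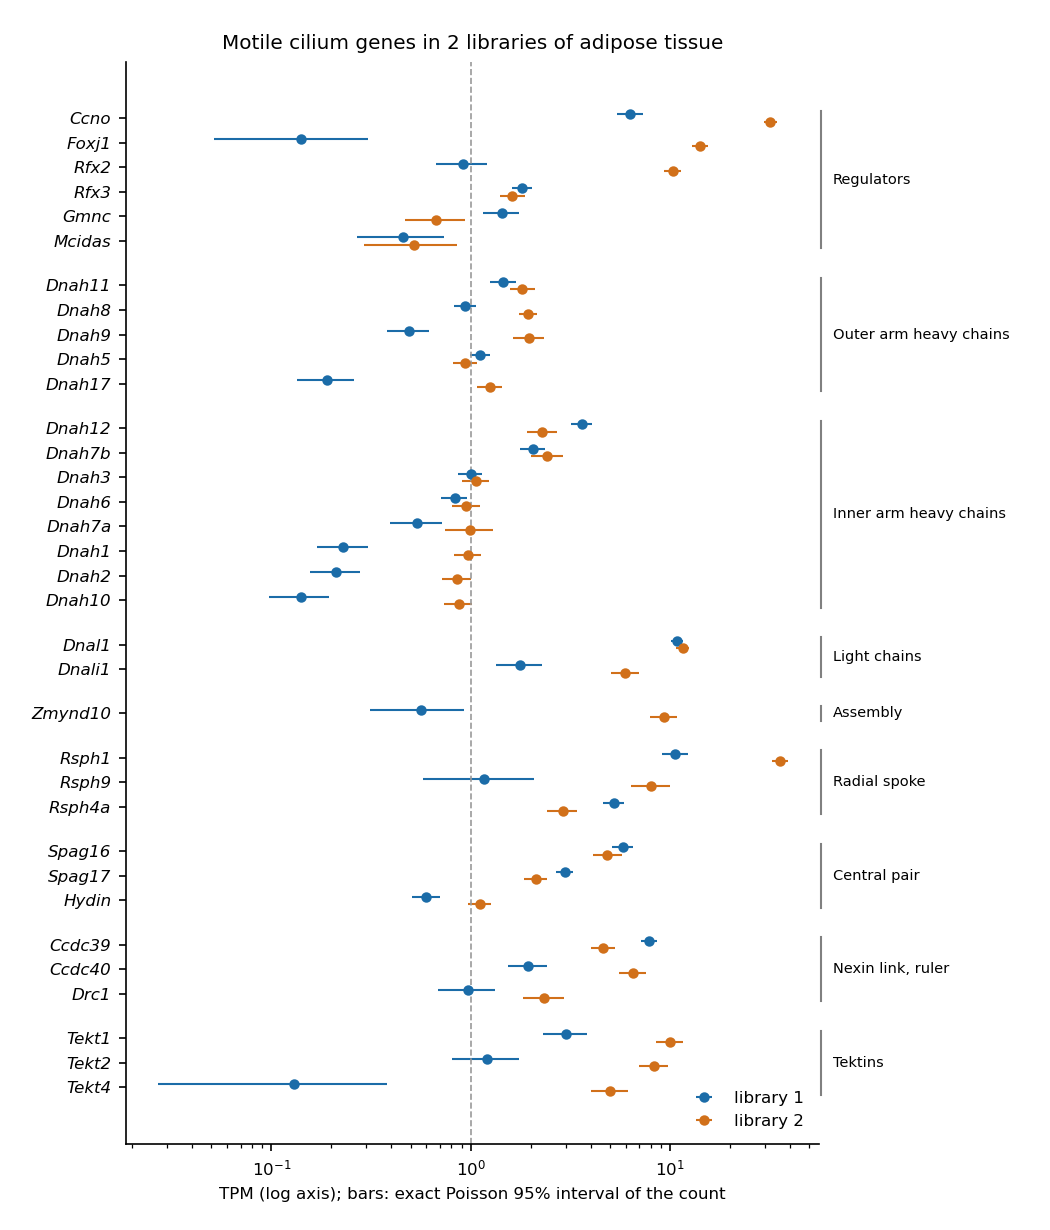
TPM of each of the 34 motile cilium genes in library 1 (blue) and library 2 (orange) on a log axis, grouped by role, with exact Poisson 95% intervals of the count as bars and a dashed line at 1 TPM. Rsph1, Ccno and Dnal1 stand above 5 TPM in both libraries, while Foxj1 and Tekt4 lie below 0.2 TPM in library 1 and at 14.15 and 4.99 TPM in library 2.

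The 2 libraries were then compared gene by gene, which asks how well the level of each member was repeated in a second library of the same biosample. Counts were scaled by TMM, which sets the median gene near no change, and a gene was called at a Benjamini-Hochberg adjusted p below 0.05 in a two-sided exact binomial test together with a change of at least 2-fold. This test compares these libraries on counting error only, not conditions. Of the 34 members, 13 rose in library 2, beside 30.2% of 18261 tested genes, and 7 fell, beside 18.6%. The other 14 were not called. The median log2 ratio of library 2 over library 1 was 0.41 over the members and 0.02 over all tested genes. On the TPM scale, by contrast, 26 members had a higher value in library 2 and 8 a lower one. That count is not particular to the members, because the median of protein-coding genes also moved up, from 2.09 to 6.01 TPM. TPM share a fixed total in each library, and transcripts of the mitochondrial genome took 19.4% of the counts in library 1 and 4.11% in library 2. The part of this difference in the shift of the TPM median was not tested. Scaling by total counts in place of TMM moved the median of all genes by 0.44 on the log2 scale. So scaled, 15 members rose (44.1%) and 3 fell (8.82%), beside 37.3% and 6.55% of all tested genes. Dnah7b, Dnah12, Spag16 and Spag17 were those that lost their call.

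Among the regulators, Foxj1, the forkhead factor that switches on motile cilium genes, differed most. Foxj1 (ENSMUSG00000034227, chr11:116330704-116335399, minus strand) had 6 expected counts in library 1, which is 0.14 TPM, but 462 in library 2, which is 14.15 TPM. The 6 counts have an exact Poisson 95% interval of 2.20 to 13.1 counts. Foxj1 was thus near the floor of detection in library 1 and above the protein-coding median in library 2. Its log2 ratio was 5.77 (95% interval 4.75 to 7.33; exact binomial test, adjusted p = 8.80e-103), the highest of the members.

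Rfx2 and Rfx3 encode regulatory factor X proteins, which bind the X-box of ciliary promoters. Rfx2 had 48 and 432 counts, or 0.91 and 10.34 TPM, and rose with a log2 ratio of 2.77 (2.35 to 3.24). Rfx3 had 278 and 189 counts, or 1.81 and 1.62 TPM, with a log2 ratio of -0.94 (-1.22 to -0.67) that did not reach 2-fold. Which of these related factors stood higher therefore depended on the library: Rfx3 in library 1 and Rfx2 in library 2.

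Gmnc and Mcidas encode coiled-coil proteins of the geminin family that start the multiciliation programme, and Ccno encodes cyclin O, needed to multiply centrioles for many cilia. Gmnc had 95 and 35 counts, or 1.43 and 0.67 TPM, and fell with a log2 ratio of -1.81 (-2.43 to -1.25). Mcidas was the lowest member by mean TPM, at 17 and 15 counts, or 0.46 and 0.52 TPM, with a log2 ratio of -0.56 (-1.67 to 0.52; exact binomial test, adjusted p = 0.33). Ccno had 183 and 723 counts, or 6.33 and 31.93 TPM (mean 19.1 ± 18.1, SD, n = 2), and rose with a log2 ratio of 1.59 (1.36 to 1.84). Ccno (ENSMUSG00000042417, chr13:112987802-112990777) and Mcidas (ENSMUSG00000074651, chr13:112993845-113000394) lie close together on the plus strand of chromosome 13. Ccno was the second-ranked member by mean TPM and Mcidas the last, so these neighbours differed in level in both libraries.

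Because 2 members are X-box binding factors, the promoters of the members were searched for that element. RefSeq promoter windows of the GRCm38.p6 build, from 250 bases before the gene start to 50 after, were at hand for 30 of the 34 members and not for Foxj1, Dnah3, Rsph1 and Rsph4a. In all, 11 letter forms of X-box and forkhead elements were tried on both strands, and the form GTTGCCA, an arm of the X-box, is shown, a choice made after the shares were seen. It occurred in 8 of 30 members (26.7%) and in 5.02% of 27025 genes with a window. Its shorter core GTTGCC, which every match of the longer form contains, occurred in 14 members (46.7%) and in 14.1% of all genes. The 6 forms of 10 or more letters, which span both arms of the X-box, matched between 0 and 11 members and between 0.0851% and 5.26% of all genes. The forkhead core TAAACA occurred in 7 members (23.3%) and in 15.1% of all genes, and the longer GTAAACA in 1 member, Dnah17 (3.33%), and in 4.05% of all genes. The longer X-box form GTTGCCATG matched 0 members and 0.877% of all genes. These matches describe letters in the windows, not binding. Upstream stretches around the match are printed for the neighbours Ccno and Mcidas and for Hydin, in which the match lay close to the gene start. They run 5′ to 3′ on the strand of the gene, with the match in capitals.
Ccno: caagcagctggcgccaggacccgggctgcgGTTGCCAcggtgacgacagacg
Mcidas: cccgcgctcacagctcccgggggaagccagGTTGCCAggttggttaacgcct
Hydin: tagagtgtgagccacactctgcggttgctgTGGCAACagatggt
The stretches lie on the plus strand at chr13:112987553-112987604 for Ccno, chr13:112993643-112993694 for Mcidas and chr8:110266933-110266976 for Hydin, where the match was on the opposite strand and appears as its reverse complement. The match ended 213 bases before the RefSeq gene start in Ccno, 189 in Mcidas and 8 in Hydin. For Mcidas the RefSeq start lies downstream of the GENCODE start printed above. The other genes with the form were Dnah10, Dnah7b, Drc1, Tekt1 and Zmynd10. These 8 genes did not share a direction between the libraries: Ccno, Dnah10 and Zmynd10 rose, Dnah7b fell, and Drc1, Hydin, Mcidas and Tekt1 were not called.

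Dynein heavy chains carry the motor domain, and 13 members encode them. Their levels were low: with every gene set to its longest annotated transcript, they ranged from 0.143 to 2.33 TPM in library 1 (median 0.762) and from 0.335 to 1.94 TPM in library 2 (median 0.943). Long transcripts gave them 34 to 374 counts apiece all the same, so that every heavy chain was counted above the floor in each library.

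Of the 5 outer arm heavy chains, Dnah5, the chain most often altered in human primary ciliary dyskinesia, had 294 and 195 counts, or 1.11 and 0.94 TPM, with a log2 ratio of -0.98 (-1.25 to -0.71). Dnah11, its partner in the proximal part of airway cilia, had 181 and 194 counts, or 1.46 and 1.82 TPM, and Dnah9, the distal partner, 69 and 130 counts, or 0.49 and 1.96 TPM. Neither was called, with log2 ratios of -0.29 (-0.59 to 0.01) and 0.52 (0.09 to 0.97). The TPM of Dnah9 rested on the gene length used: at its longest transcript it had 0.296 and 0.713 TPM. In library 2 a model of 532 bases held 30.2% of its TPM on 2.76 counts. Dnah8 and Dnah17, the outer arm chains known from the sperm tail, differed from each other. Dnah8 had 232 and 374 counts, or 0.94 and 1.94 TPM, with a log2 ratio of 0.30 (0.06 to 0.54). Dnah17 had 39 and 195 counts, or 0.19 and 1.25 TPM, and rose with a log2 ratio of 1.92 (1.43 to 2.47), alone among the 5.

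Of the 8 inner arm heavy chains, Dnah1, Dnah2 and Dnah10 rose, Dnah7b and Dnah12 fell, and Dnah3, Dnah6 and Dnah7a were not called. Dnah10 and Dnah2, which together form the double-headed inner arm, had 34 and 49 counts in library 1 and 154 and 147 in library 2, or 0.14 and 0.21 TPM against 0.87 and 0.85 TPM. Their log2 ratios were 1.78 (1.25 to 2.37) and 1.19 (0.72 to 1.70). Dnah1, a chain that sperm tails need, had 49 and 165 counts, or 0.23 and 0.97 TPM, and a log2 ratio of 1.35 (0.90 to 1.86). All 3 chains that rose were under 0.25 TPM in library 1 and under 1 TPM in library 2.

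Dnah12 was the heavy chain with the highest mean TPM, at 3.62 and 2.29 TPM (272 and 134 counts), and fell with a log2 ratio of -1.41 (-1.72 to -1.10). Most of its TPM, 83.2% and 84.2%, was assigned to a model of 4092 bases rather than to the 7005-base one. Dnah3 had 206 and 171 counts, or 1.00 and 1.06 TPM, and Dnah6 had 176 and 157, or 0.83 and 0.95 TPM, with log2 ratios of -0.66 and -0.55. These last chains kept nearly the same TPM in both libraries.

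Dnah7a and Dnah7b are near-identical copies on chromosome 1, and their expected counts were not whole, so their values are uncertain. Dnah7a had 47.3 and 54.0 expected counts, or 0.54 and 0.99 TPM, and 0.229 and 0.335 TPM at the length of its longest transcript. Dnah7b had 187 and 119, or 2.05 and 2.42 TPM, and 0.902 and 0.733 TPM at the length of its longest transcript. It was called lower at a log2 ratio of -1.04 (-1.38 to -0.70). Summed with the third copy, Dnah7c, which is not a member, the family had 315 and 215 counts, with a log2 ratio of -0.94 (-1.20 to -0.68). A model of 740 bases held 57.4% and 58.3% of the TPM of Dnah7b on only 11.1 and 10.5 counts. To show how alike the copies are, the first 90 coding bases of Dnah7a and the matching bases 133 to 222 of Dnah7b are given, from the GENCODE M21 transcripts, with the 5 differing bases in capitals.
Dnah7a: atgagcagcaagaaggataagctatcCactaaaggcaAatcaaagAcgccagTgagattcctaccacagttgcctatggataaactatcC
Dnah7b: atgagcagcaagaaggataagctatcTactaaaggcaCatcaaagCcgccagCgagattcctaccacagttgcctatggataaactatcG
Over 12072 aligned coding bases the copies were 97.0% identical. Of all 50-base windows of the coding sequence of Dnah7a, 30.9% occurred unchanged in Dnah7b, and 48.6% of those of Dnah7b occurred in Dnah7a or Dnah7c. A read from such a window cannot be given to a single gene.

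The smaller dynein chains were higher. Dnal1, the light chain of the outer arm, had 773 and 689 counts, the most of any member in library 1. Its 10.85 and 11.59 TPM (mean 11.2 ± 0.523, SD, n = 2) made it one of the best repeated members on that scale. Its log2 ratio after TMM was -0.55 (-0.70 to -0.40), short of 2-fold. Dnali1, the light intermediate chain of the inner arm, had 59 and 156 counts, or 1.77 and 5.98 TPM, and rose just past 2-fold, at a log2 ratio of 1.01 (0.57 to 1.47). Zmynd10, a cytoplasmic factor that helps to assemble dynein arms before they enter the cilium, had 15 and 162 counts, or 0.56 and 9.32 TPM. It was under 1 TPM in library 1 and rose with a log2 ratio of 3.0 (2.28 to 3.92).

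All 3 radial spoke members encode proteins of the spoke head, and they did not move together. Rsph1 (ENSMUSG00000024033, chr17:31255019-31277383, minus strand) was the highest member, at 177 and 466 counts, or 10.59 and 35.53 TPM (mean 23.1 ± 17.6, SD, n = 2). It rose with a log2 ratio of 1.01 (0.76 to 1.27; exact binomial test, adjusted p = 3.21e-16). Rsph9 had 11 and 81 counts, or 1.16 and 8.03 TPM, and rose with a log2 ratio of 2.44 (1.58 to 3.55). Rsph4a had 284 and 134 counts, or 5.21 and 2.89 TPM, and fell with a log2 ratio of -1.47 (-1.78 to -1.17). Rsph4a thus stood above Rsph9 in library 1 and below it in library 2. Within Rsph4a, the model of 3650 bases had 142 and 134 counts, while that of 3138 bases had 142 in library 1 and 0.04 in library 2. The loss of counts in this gene was thus assigned to a single model.

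Among the proteins of the central pair apparatus, Spag16 and Spag17 both fell. Spag16 had 279 and 140 counts, or 5.81 and 4.86 TPM, with a log2 ratio of -1.38 (-1.69 to -1.08). Spag17 had 389 and 218 counts, or 2.96 and 2.12 TPM, with a log2 ratio of -1.22 (-1.47 to -0.98). Hydin, a very large central pair protein, had 159 and 231 counts, or 0.60 and 1.11 TPM, with a log2 ratio of 0.15 (-0.15 to 0.45; exact binomial test, adjusted p = 0.37).

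Ccdc39 and Ccdc40 encode partner proteins that form the molecular ruler of the axoneme, the core of the cilium. Ccdc39 had 459 and 213 counts, or 7.83 and 4.64 TPM, and fell with a log2 ratio of -1.49 (-1.74 to -1.26). Ccdc40 had 79 and 166 counts, or 1.94 and 6.51 TPM, with a log2 ratio of 0.68 (0.29 to 1.09) that did not reach 2-fold. By these TPM Ccdc39 was the higher in library 1 and Ccdc40 in library 2. That order rested on the gene length used: Ccdc40 reads were assigned to models shorter than its longest one of 4979 bases, and with each gene set to its longest transcript Ccdc39 was the higher in both libraries, at 7.83 against 0.964 TPM and at 4.64 against 2.59 TPM. Drc1, a subunit of the nexin-dynein regulatory complex, had 38 and 72 counts, or 0.97 and 2.34 TPM, with a log2 ratio of 0.53 (-0.05 to 1.14; exact binomial test, adjusted p = 0.084).

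Tektins are filament proteins inside the doublet microtubules, and all 3 had more counts in library 2. Tekt1 had 62 and 162 counts, or 3.0 and 9.98 TPM, and fell just short of a call at a log2 ratio of 0.99 (0.57 to 1.44). Tekt2 had 28 and 144 counts, or 1.21 and 8.34 TPM, and rose with a log2 ratio of 1.95 (1.38 to 2.61). Tekt4, prominent in the sperm tail, had 3 counts in library 1, with an exact Poisson 95% interval of 0.619 to 8.77, and 90 in library 2, or 0.13 and 4.99 TPM. Its log2 ratio was 4.31, with a counting interval of 2.93 to 6.82.

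The direction of a member followed the GC content of its transcripts. All 7 that fell were among the 10 members under 45% GC, where the median log2 ratio was -1.30 over the members and -1.16 over 4252 genes of that class, 60.6% of which fell. None of the 6 members between 45% and 50% GC was called, with a median of -0.42 beside -0.43 over all genes of that class, of which 2.73% rose and 13.7% fell. Between 50% and 55% GC, 8 of 13 members rose, with a median of 1.01 beside 0.76, and 39.1% of all genes of that class rose. At 55% GC or more all 5 members (Foxj1, Tekt4, Zmynd10, Rfx2 and Ccno) rose, with a median of 3.0 beside 2.65, and so did 86.4% of all genes of that class. Spearman's rho between GC content and log2 ratio was 0.92 across the 34 members and 0.89 across 12045 genes with at least 100 counts on average. These are correlations across genes that share the same libraries, given as a description. To show how far members differ in base composition, the middle 90 coding bases of Ccdc39 (coding bases 1361 to 1450 of 2811) and Foxj1 (587 to 676 of 1263) are printed from the GENCODE M21 transcripts, with G and C in capitals.
Ccdc39: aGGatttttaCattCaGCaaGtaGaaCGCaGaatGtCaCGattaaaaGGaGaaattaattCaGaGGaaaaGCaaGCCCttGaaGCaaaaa
Foxj1: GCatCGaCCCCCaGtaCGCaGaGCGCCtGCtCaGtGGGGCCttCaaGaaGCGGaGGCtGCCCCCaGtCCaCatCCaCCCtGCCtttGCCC
G and C made up 35.6% of the Ccdc39 stretch and 66.7% of the Foxj1 stretch, and 41.2% and 64.1% of the whole coding sequences.

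**Figure D2:**
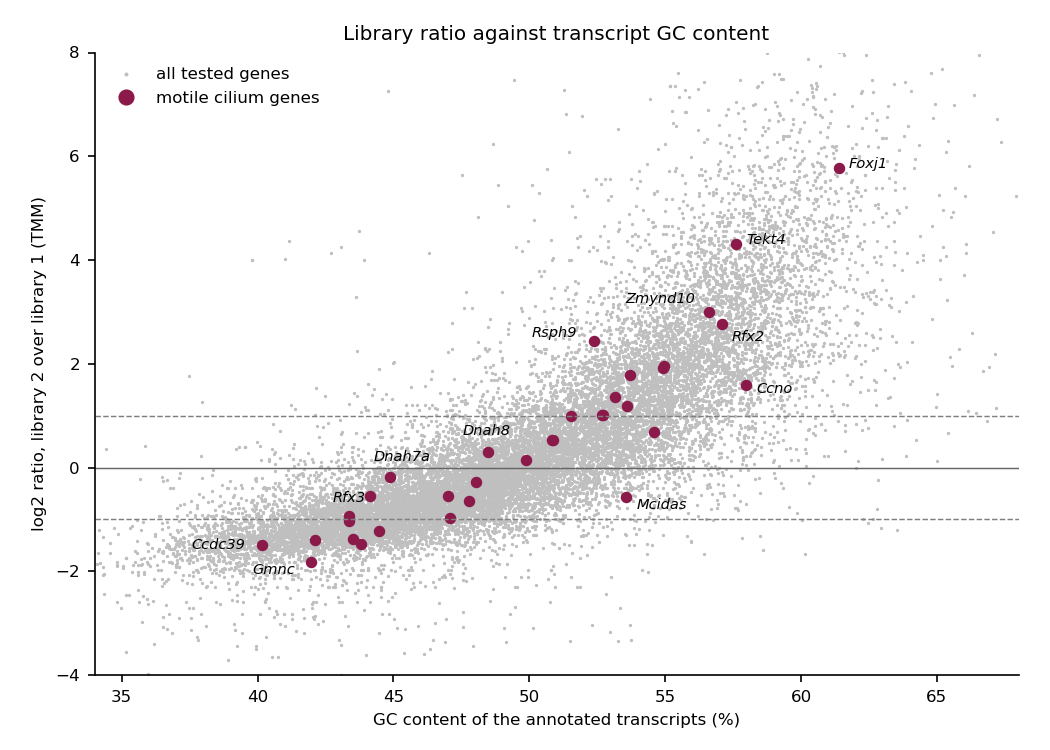
Log2 ratio of library 2 over library 1 after TMM scaling against the GC content of the annotated transcripts in percent, for all tested genes within the axis limits (grey) and the 34 motile cilium genes (purple), with dashed lines at 2-fold. The members lie within the band of all genes, from Ccdc39 and Gmnc at the lower left to Foxj1 at 61.4% GC.

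When the median ratio of genes of like GC content was subtracted, 3 members still rose and 2 fell, beside 9.28% and 8.77% of 18133 genes. The median log2 ratio of the members was then 0.16. Foxj1 kept a log2 ratio of 1.59, Rsph9 1.66 and Tekt4 1.55, and these 3 rose under both readings (exact binomial test, adjusted p = 0.0022, 1.05e-04 and 0.045 after removal). Each of these 3 had 11 or fewer counts in library 1. Ccno changed direction, to -1.36, and Mcidas, not called before, was called lower at -1.60. Of the other members called before, 9 that had risen and all 7 that had fallen were no longer called. Among partner genes, Spag16 and Spag17 then stood at -0.35 and -0.31, Dnah2 and Dnah10 at 0.15 and 0.69, and Ccdc39 and Ccdc40 at -0.13 and -0.87. Rsph9 remained apart from Rsph1 (0.17) and Rsph4a (-0.47), although the difference between these genes was not tested.

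**Figure D3:**
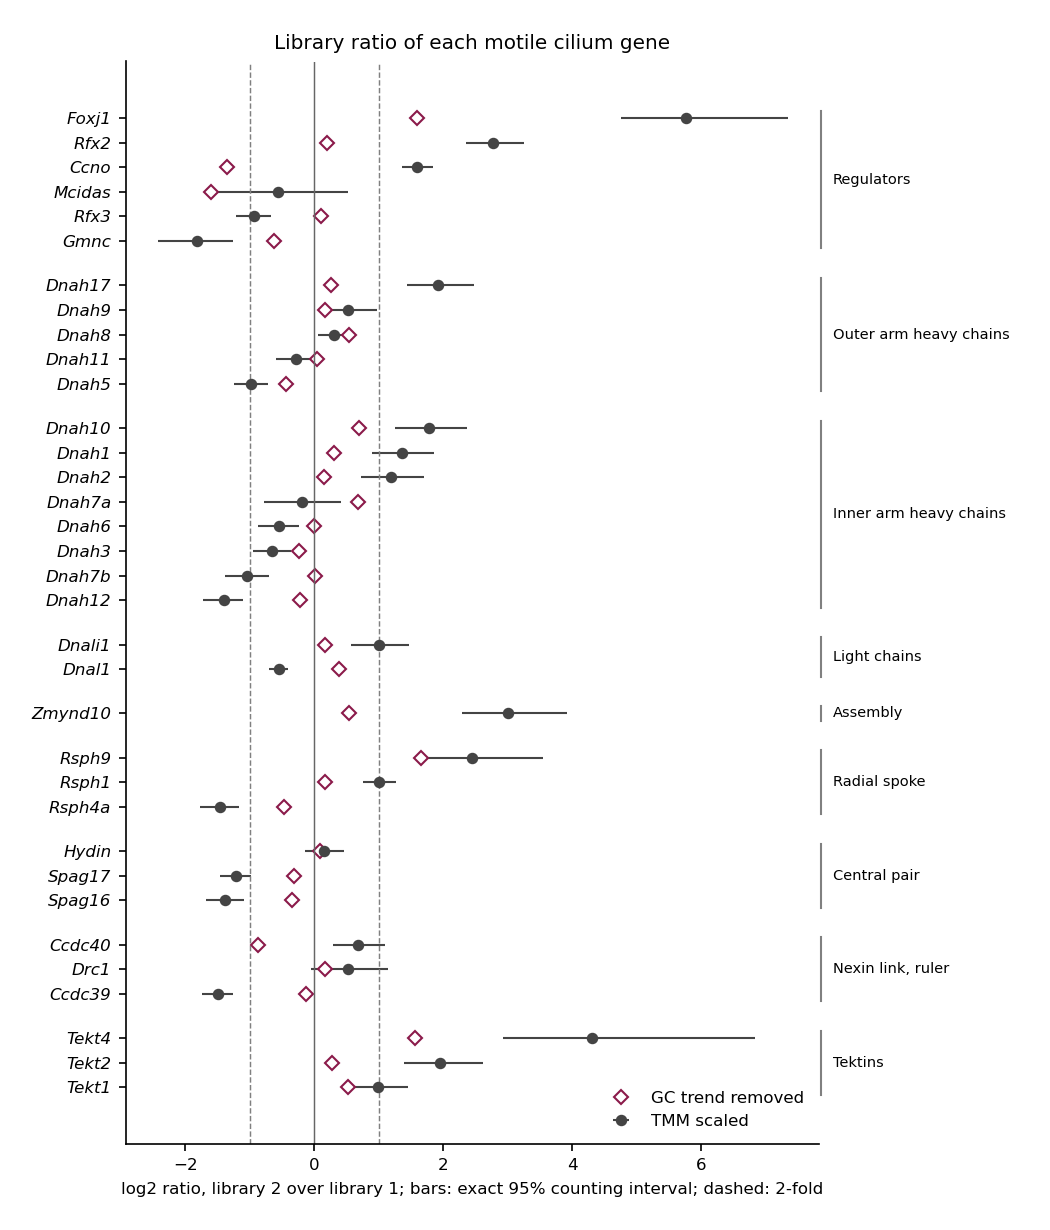
Log2 ratio of library 2 over library 1 for each member after TMM scaling (black, with exact 95% counting intervals) and after removal of the GC trend (open diamonds), grouped by role, with dashed lines at 2-fold. After removal most diamonds lie inside the dashed lines, with Foxj1, Rsph9 and Tekt4 above and Ccno and Mcidas below.

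Exons of 16 members overlap exons of another gene on the opposite strand in the GENCODE M21 annotation, and whether counting used the strand is not given in the sources used here. Reads in these stretches may belong to either gene. The longest overlaps with a transcribed gene were those of Dnah3 with Lyrm1 (1506 bases; Lyrm1 at 6.93 and 5.91 TPM), Ccdc39 with Ttc14 (1256 bases; 18.62 and 11.3 TPM), Spag17 with Wdr3 (820 bases; 7.63 and 10.72 TPM) and Dnah11 with Cdca7l (642 bases; 6.3 and 7.7 TPM). In each of these pairs the partner stood above the member in TPM in both libraries. By counts the same held for all but Lyrm1, which had 98 and 67 counts beside 206 and 171 for Dnah3. Dnah17 overlaps Pgs1 by 93 bases, and Pgs1 had 68 and 666 counts, a change in the same direction as that of Dnah17. Of the 18 members with no such overlap, 6 rose (33.3%) and 5 fell (27.8%), beside 30.2% and 18.6% of all tested genes.

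Transcript models add detail for several members, as estimates that rest on few counts. Dnah10 had 34 counts on its 14038-base model and 0 on the 13275-base one in library 1, and 14.7 and 139 in library 2. Rfx2, Dnah2 and Dnah6 likewise had a model with 0 counts in library 1 and 158, 56.6 and 53.6 counts in library 2. For Dnal1, the 1938-base model had 66.0 and 0 counts, while the 5727-base model held 67.0% and 76.8% of the TPM. In Dnah11 a model of 8260 bases held 71.0% and 77.7% of the TPM, with the full 14072-base model at 10.2% and 11.6%.

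Other genes of the motile cilium, in 5 further lists of 84 genes that are not members, were present as well. In these lists 57 genes (67.9%) reached 1 TPM in both libraries, the median TPM was 2.11 and 4.73, and of 80 tested 24 rose (30%) and 13 fell (16.2%), close to the 30.2% and 18.6% of all tested genes. After GC removal 7 rose and 4 fell, beside 9.28% and 8.77% of all genes. Of 14 further dynein arm and docking genes, 7 reached 1 TPM in both libraries, 4 rose and 2 fell. They were led by the light chain gene Dynlrb2 at 11.55 and 14.12 TPM, the intermediate chain gene Wdr78 at 6.22 and 5.76 TPM and the docking complex gene Ccdc114 at 0.65 and 8.39 TPM. Of 12 further assembly factors 11 were tested, of which 5 rose and 2 fell, with Cfap298 at 8.99 and 30.47 TPM. Ruvbl2, a chaperone subunit with broad roles beyond cilia, stood at 0.78 and 27.19 TPM, and Ruvbl1, which shares reads, at 5.56 and 19.03 TPM.

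Among 21 further spoke, central pair and nexin link genes, 16 reached 1 TPM in both libraries, 6 rose and 4 fell. The copies Rsph3b and Rsph3a, which share reads and are uncertain, stood at 15.09 and 48.24 and at 7.50 and 25.67 TPM, and Cfap206 at 23.78 and 11.82 TPM. Of 20 further tektins and tubule proteins, 15 reached 1 TPM in both, 6 rose and 2 fell. Tppp3, a tubulin-binding protein, had 0.70 and 62.96 TPM, Enkur 17.93 and 9.18 TPM and Cfap126 7.13 and 19.64 TPM. Of 17 further multiciliation genes, a list that also holds broadly expressed genes such as Foxj3, Foxj2, Rfx5, Rfx7 and Gmnn, 14 were tested, of which 3 rose and 3 fell. It was led by Foxj3 (30.72 and 19.54 TPM) and by E2f5 (21.96 and 16.03 TPM) and E2f4 (2.23 and 27.94 TPM), whose products act with the proteins of Gmnc and Mcidas. In library 1 Cdc20b, Foxn4 and Ccdc78 of that list were at 0 counts, and in library 2 they had 1, 1 and 5. Deup1, a centriole amplification gene named after its values were seen, stood at 4.62 and 4.73 TPM.

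Genes shared with the primary cilium were higher. All 30 genes of intraflagellar transport and the BBSome and transition zone reached 1 TPM in both libraries, with medians of 9.93 and 13.97 TPM, above the medians of the members. Of these 30, 4 rose (13.3%) and 8 fell (26.7%), beside 30.2% and 18.6% of all tested genes. After GC removal 2 rose and 1 fell, beside 9.28% and 8.77% of all genes. The median GC content of this list was 46.4%. Ift20 was at 42.46 and 106.52 TPM, Arl3 at 46.79 and 61.49 TPM and Ift52 at 57.76 and 41.27 TPM.

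Markers of cells that bear motile cilia or sperm tails were measured beside the members, as were those of the labelled tissue. Of 12 genes of multiciliated epithelium, 3 of which are also in the lists above, 11 reached 1 TPM in both libraries. They summed to 61.4 and 175 TPM in the 2 libraries, beside 78.5 and 196 TPM for the members. Tppp3 alone held 0.70 TPM of the first of these list sums and 62.96 TPM of the second. Of these 12, 5 rose (41.7%) and 2 fell (16.7%), beside 30.2% and 18.6% of all tested genes. After GC removal 3 rose and 0 fell, beside 9.28% and 8.77% of all genes. Tppp3, Cfap126 and Dynlrb2, given above, led this list too. Of 8 efferent duct genes, 6 reached 1 TPM in both, with sums of 121 and 362 TPM, led by Aqp1 (33.35 and 185 TPM), which blood vessels also express, Pax8 (43.3 and 98.94 TPM) and Esr1 (20.16 and 20.19 TPM). Of these 8, 3 rose (37.5%) and 0 fell, beside the same shares of all genes, and 0 rose and 2 fell after GC removal. Cubn, an endocytic receptor of absorbing epithelia named after its values were seen, had 0.05 and 0.07 TPM. Whether the genes of this list mark the efferent duct in this sample was not tested.

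Of 16 spermatid and sperm genes, 15 reached 1 TPM in both libraries, with sums of 370 and 1617 TPM. Of these 16, 6 rose (37.5%) and 2 fell (12.5%), beside 30.2% and 18.6% of all tested genes. After GC removal 2 rose and 0 fell, beside 9.28% and 8.77% of all genes. The protamine genes Prm2 and Prm1, which pack sperm DNA, stood at 2.94 and 516 TPM and at 45 and 257 TPM, and Smcp, a sperm mitochondrial protein gene, at 136 and 160 TPM. Of 10 spermatocyte genes 6 reached 1 TPM in both, with sums of 48.8 and 36.4 TPM, led by Mael at 22.11 and 16.03 TPM, Sycp3 at 9.65 and 4.37 TPM and Spo11 at 2.85 and 4.11 TPM. In this list, whose median GC content was 41.5%, 1 rose and 7 fell, beside 60.6% of all genes under 45% GC that fell, and after GC removal 1 rose and 0 fell.

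All 12 genes of epididymal principal cells were far above the members, with a lowest level of 439 and 437 TPM and medians of 2543 and 3003 TPM. They were led by Gpx5 at 14177 and 15610 TPM, Spag11b at 9861 and 10050 TPM and Crisp1 at 6982 and 4053 TPM. All 12 adipocyte genes were detected as well, with medians of 113 and 738 TPM, led by Fabp4, Cfd and Lpl, and so were all 7 mesothelial genes, with medians of 9.26 and 18.9 TPM, led by Krt19, Upk1b and Upk3b. Markers of the labelled tissue were thus measured beside those of duct epithelium. No marker of any of these lists was at 0 in both libraries. Several members are also transcribed in spermatids, and the part of each cell type in the levels of the members was not tested.

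**Figure D4:**
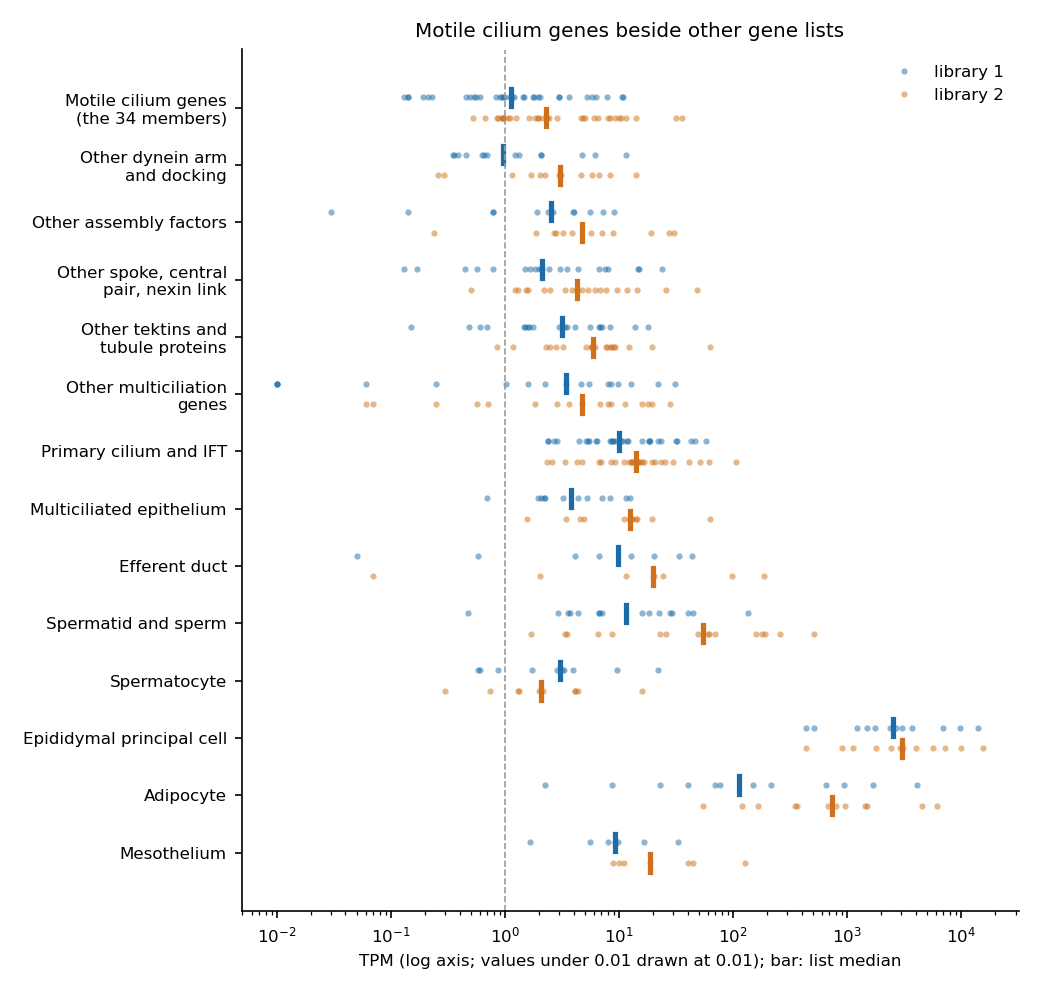
TPM of every gene (points) and the median (bars) of the 34 motile cilium genes and 13 other lists in library 1 (blue) and library 2 (orange) on a log axis, with values under 0.01 TPM drawn at 0.01 and a dashed line at 1 TPM. The members have medians of 1.14 and 2.32 TPM, beside 9.93 and 13.97 TPM for primary cilium genes and 2543 and 3003 TPM for epididymal principal cell genes.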

How the data were processed

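RNA-seq of polyadenylated RNA from mouse fat covered 1 biosample in 2 technical libraries. For genes and transcripts, the authors deposited expected counts, which need not be whole, with TPM and FPKM, per the file headers. The percent of a gene's TPM that each transcript takes is also as the authors deposited it. The files use mm10 and annotation M4, per the deposited notes. Aligner, quantifier and strand setting: not given in the sources used here. Symbols, exons and GC content came from GENCODE M21 of the same assembly.

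Expected counts were rounded. Genes with at least 10 counts in sum (18261) were tested as described, with TMM sizes from edgeR 4.0.16, 0.5 added for log2 ratios and 95% exact Clopper-Pearson intervals. With 1 library a side no residual degrees of freedom exist, so edgeR's own test could not be fitted. The GC trend was the median of 40 bins set by genes averaging 100 counts or more. A gene at 1 kb reached the floor of 3 counts at 0.175 and 0.224 TPM. Intervals cover counting error only, since the reads carry no molecular identifiers and so are not independent molecules. Counts not whole within 0.005 mark shared reads.

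Every member is named, and up to 3 genes with the highest mean TPM of each of 13 other lists. Cdc20b, Foxn4 and Ccdc78 (at 0 in library 1), Deup1, Cubn, the broadly expressed regulators and the overlap partners were named after their values were seen. Members and lists were chosen with earlier results of these data known. Alternatives covered scaling (DESeq2 1.42.0 size factors, total counts), filters, pseudocount, posterior means, FPKM, detection limits, folds, GC removal and each library alone. Gene length, whole counts and exon overlap were added after seeing the data. On simulated data for library 2 against library 1 (18254 genes, no GC trend), 99% of 3-fold changes were called and 0% of genes without a change. With a straight-line GC trend left in, 65% of 3-fold changes were called in the right direction. Of the unchanged genes among 18436, 43.2% were called, and 0.149% among 18311 after removal of the trend. The trend of these libraries was steeper than that line at high GC content. In the libraries themselves, 9.28% of 18133 genes still rose and 8.77% fell after removal, so the simulated 0.149% need not hold there. The 99% and the 65% each rest on 100 changed genes. How the simulated shares vary with count level was not tested. They need not hold for members with few counts, such as Tekt4, Foxj1 and Rsph9. R 4.3.3, Python 3.11.15, scipy 1.17.1 and pandas 2.3.3 were used.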

Additional observations from a re-analysis of the deposited data

How the results depend on the processing

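The log2 ratio of each member was recomputed under 7 settings, giving 237 values, of which 204 kept their direction and side of the threshold, 20 lost their call, 4 gained one and 9 changed sign. With the GC trend removed, the sign changed for Ccno (-1.36), Ccdc40 (-0.87), Dnal1 (0.39), Rfx3 (0.10), Dnah11 (0.046), Dnah7a (0.68) and Dnah7b (0.0052). With total counts it changed for Dnah11 (0.15) and Dnah7a (0.25). Removal also cut the members that rose from 13 to 3 (8.82%) and those that fell from 7 to 2 (5.88%). Of all genes, 1683 (9.28%) then rose and 1590 (8.77%) fell. Total counts gave 15 members higher (44.1%) and 3 lower (8.82%), beside 6817 (37.3%) and 1197 (6.55%) of all genes. The median log2 ratio was then 0.85 over the members. At 4-fold, 5 members rose (14.7%) and 0 fell, beside 3394 (18.6%) and 345 (1.89%) of all genes. At 1.5-fold, 15 members rose (44.1%) and 10 fell (29.4%), beside 6518 (35.7%) and 5464 (29.9%) of all genes. Of the 18 members that do not overlap another gene, 6 rose (33.3%) and 5 fell (27.8%), beside 38.2% and 20.6% of all 34. At 0.5 TPM 26 of 34 members were detected in both libraries, beside 13577 of 21474 protein-coding genes. At 5 TPM these were 3 and 8045, and at 10 counts 32 and 14184. The share of members was thus below that of protein-coding genes at 1 and 5 TPM, and above it at 0.5 TPM and at 10 counts. With the longest transcript length 12 members were detected in both, and their median over mean TPM was 1.73 in place of 2.39. Left with a single library, between 19 and 26 members, and between 12456 and 14421 protein-coding genes, reached 1 TPM, and the median TPM of the members ran from 1.14 to 2.32. Where no cause is given, it was not tested. No paired analysis was possible because the labels give only 1 group. Depth limits Tekt4, Foxj1 and Rsph9 most, with 3, 6 and 11 counts in library 1.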
